A study of Mus musculus with 11 samples.

Results

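Of the 24701 H3K4me3 peaks called in quiescent satellite cells (QSCs) of young mice, 2543 (10.3%) carried both H3K4me3 and H3K27me3 in each of the 3 cell states studied. These stable bivalent sites were chosen by 1 rule: the young QSC H3K4me3 peak had to share at least 1 bp with a peak in each of the other 5 lists, namely H3K27me3 in young QSCs and H3K4me3 and H3K27me3 in young activated satellite cells (ASCs) and in old QSCs. Because the peak lists themselves chose the sites, the presence, score and width of both marks are given below as a description and not as a test. They formed 73.8% (95% interval 72.3% to 75.2%) of the 3446 H3K4me3 peaks that were bivalent in young QSCs. The other 903 bivalent peaks, and the 12728 young QSC H3K4me3 peaks that had H3K4me3 in all 3 states and H3K27me3 in none, served for comparison.

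H3K4me3 is laid down at promoters of genes that are transcribed or ready for transcription, whereas H3K27me3 is deposited by Polycomb repressive complex 2 and accompanies silencing. Chromatin that carries both is called bivalent and is best known from embryonic stem cells, where it sits at the CpG-rich promoters of developmental regulators such as the Hox genes, which are silent but can be switched on during differentiation. H3K36me3 follows elongating RNA polymerase through gene bodies and is usually kept apart from H3K27me3. Satellite cells are the resident stem cells of skeletal muscle, quiescent in undamaged tissue and dividing after activation.

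The chromatin came from male C57BL/6 mice, and every cell was sorted from hindlimb muscle as VCAM+/CD31-/CD45-/Sca1-. Young mice were 2 to 3 months old and old mice 22 to 24 months. By the sample descriptions, the ASCs were young QSCs grown for 3 days on coated plates in serum-containing medium, whereas the paper speaks of satellite cells activated by muscle injury. ChIP-seq used 5 μg of antibody and 15 PCR cycles and gave 1 library for each state and mark, and the peak lists called from these libraries by the authors were the starting point here. Since there was no replicate, differences between states had no test, and the intervals given cover counting error only. Read numbers of the libraries are unknown. Identity of the sorted cells could not be checked from peaks alone, and overlap of peaks from separate libraries leaves unknown whether a molecule, or a cell, carried both marks together.

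The lists differed in size, from 11658 H3K27me3 peaks in young QSCs to 17635 in old QSCs and 38307 in young ASCs, while the H3K4me3 lists held 24701, 24453 and 32846 peaks in the same order. In the old QSC library, H3K27me3 peaks were short and lay on H3K4me3 more often than in the others. Of the old H3K27me3 peaks, 41.3% (40.6% to 42.0%) met an H3K4me3 peak of the same state, against 27.7% (26.9% to 28.5%) in young QSCs and 13.9% (13.5% to 14.2%) in young ASCs. With 1 library each, age cannot be told apart from depth or immunoprecipitation quality, and this holds for every difference between states below.

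Bivalent sites of young QSCs were lost from the stable set mainly through the H3K27me3 list of old QSCs. Of the 3446 bivalent peaks, 94.2% (93.4% to 94.9%) met H3K27me3 in young ASCs, 92.5% (91.6% to 93.3%) met H3K4me3 in old QSCs, 89.0% (87.9% to 90.0%) met H3K4me3 in young ASCs and 83.7% (82.4% to 84.9%) met H3K27me3 in old QSCs. Over all 24701 young QSC H3K4me3 peaks, 19404 met H3K4me3 in young ASCs and 19891 met it in old QSCs. H3K27me3 was met by 6426 of them in young ASCs and by 5221 in old QSCs. Of the bivalent peaks, a single list kept 563 out of the stable set, 2 lists 221, 3 lists 81 and 4 lists 38. The peaks kept out by the H3K27me3 lists and by the H3K4me3 lists were of different kinds. The 326 that lacked only H3K27me3 in old QSCs had strong H3K4me3 in young QSCs, with a median peak score of 1213 and a median width of 1601 bp. So had the 45 that lacked only H3K27me3 in young ASCs, with medians of 1034 and 1505 bp. The score is that of the peak caller, 10 times the negative log10 of the peak's p-value, and it moves with sequencing depth. By contrast, the 151 that lacked only H3K4me3 in young ASCs had a median H3K4me3 score of 95.5 in young QSCs, and the 41 that lacked only H3K4me3 in old QSCs one of 82.6. The lowest score called was 50.

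Few stable sites depended on a marginal overlap. The smallest of a site's overlaps had a median of 1023 bp, was at least 500 bp at 2424 of the 2543 sites and was under 100 bp at 20. Positions are those of the mouse build mm9, which the submitters' processing notes name. Just inside the rule lay the peak at chrX:133654238-133654918, which shared 2 bp with H3K27me3 of young QSCs. Next came chr11:96172627-96173457, with 3 bp in the H3K27me3 list of old QSCs, and chr6:85136429-85137007, with 4 bp in the H3K4me3 list of young ASCs. Just outside lay chr3:158223818-158224805, which adjoined an H3K4me3 peak of old QSCs with a gap of 0 bp but shared no base with it. The peak at chr2:105527763-105528602 lay 9 bp from H3K27me3 of old QSCs, and chr7:51716047-51717513 lay 16 bp from H3K4me3 of young ASCs. Of the 1301 H3K4me3 peaks of young QSCs that missed the rule by 1 list, 123 were within 1 kb of the missing peak.

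H3K4me3 at the stable sites was of middling strength. The median percentile of the site's H3K4me3 score within its list was 50.9 in young QSCs, 63.6 in young ASCs and 54.6 in old QSCs. When the young QSC H3K4me3 peaks were ranked by score and cut into 10 classes of equal size, the stable share was 4.78% in class 1, the highest, rose to 22.3% (20.7% to 24.0%) in class 6 and was 1.78% (1.33% to 2.38%) in class 10. Stable sites thus came mostly from the middle of the H3K4me3 range, as did the young QSC bivalent peaks in general. Of all these bivalent peaks, stable ones included, 184 lay in class 1, 638 in class 6 and 171 in class 10. The rule asked for calls in 5 further lists, and its part in the low share of class 10 was not tested. Among peaks already bivalent in young QSCs, the stable share was 86.2% to 86.7% in classes 4 to 6, 64.1% in class 1 and 25.7% in class 10.

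H3K27me3 at the same sites ranked high. Its median percentile was 87.2 in young QSCs, 98.4 in young ASCs and 90.2 in old QSCs, so that in young ASCs the typical site held one of the strongest H3K27me3 peaks of the list. The stable sites took up 2418 H3K27me3 peaks in young QSCs (20.7% of the list), 2375 in young ASCs (6.20%) and 2731 in old QSCs (15.5%). By covered length their part was larger, with 7.72 Mb or 36.1% in young QSCs, 9.54 Mb or 19.5% in young ASCs and 3.88 Mb or 23.0% in old QSCs. An overlap rule takes up wide peaks more readily than narrow ones, and its part in these shares was not tested. Scores of different lists rest on unknown depths and do not rank the marks or states. As a measure of how near a site came to the limit of calling in any list, the lowest of its 6 scores had a median of 171, was at least 100 at 1817 sites (71.5%) and at least 1000 at 92.

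The H3K4me3 peaks changed little in width between states, whereas the H3K27me3 peaks did. With all peaks of a list that met a site added up, H3K4me3 had a median width of 1468 bp in young QSCs, 1376 bp in young ASCs and 1634 bp in old QSCs. H3K27me3 had a median summed width of 2662 bp in young QSCs, with quartiles at 1575.5 and 4759 bp. It was 3617 bp in young ASCs, with quartiles at 2198 and 6248 bp, and 1376 bp in old QSCs, with quartiles at 1058 and 1894 bp. Thus the upper quartile of old QSCs lay below the median of either young state. The box plots of width show the H3K4me3 boxes side by side at nearly the same height and the H3K27me3 boxes at different heights.

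**Figure D1:**
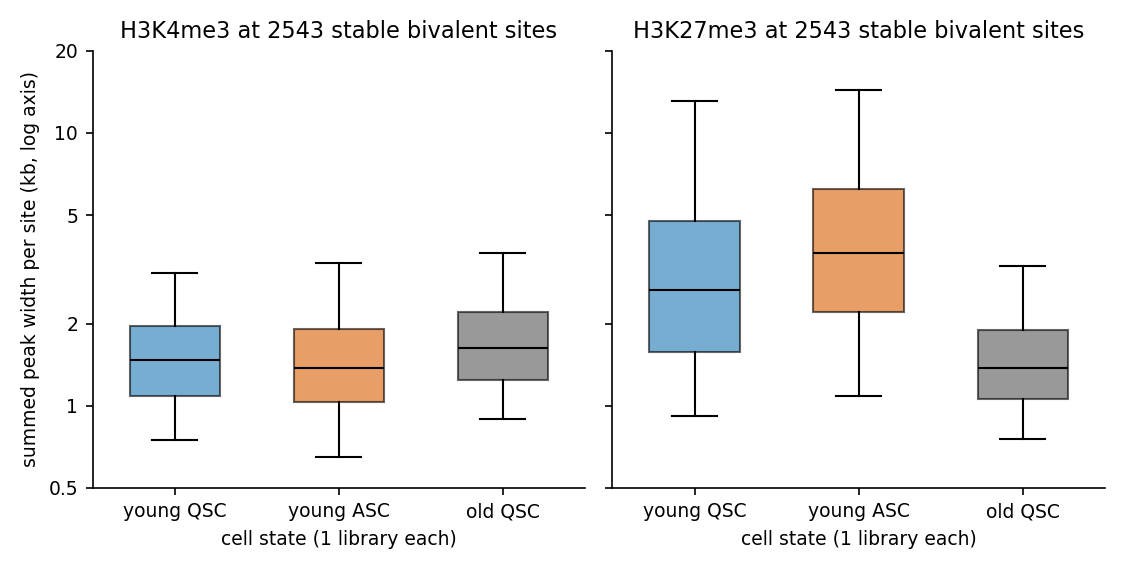
Summed peak width per site in kb (log axis) at the 2543 stable bivalent sites, for H3K4me3 (left) and H3K27me3 (right) in young QSC, young ASC and old QSC, 1 library each. Boxes span the quartiles with the median as a line, and whiskers reach the 5th and 95th percentiles. The H3K27me3 median was 2662 bp in young QSC, 3617 bp in young ASC and 1376 bp in old QSC.

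Wide H3K27me3 domains were common among the H3K27me3 peaks at stable sites of young mice and nearly missing in old QSCs. Peaks over 5 kb numbered 377 of 2418 (15.6%, 14.2% to 17.1%) in young QSCs and 586 of 2375 (24.7%, 23.0% to 26.4%) in young ASCs, but 7 of 2731 (0.256%, 0.124% to 0.528%) in old QSCs. Among the other H3K27me3 peaks of the lists these shares were 1.98%, 0.729% and 0.0671%. Narrow peaks of 0.5 to 1 kb made up 10.5% of the H3K27me3 peaks at stable sites in young QSCs, 6.19% in young ASCs and 27.9% in old QSCs, compared with 40.7%, 61.4% and 72.6% of the other peaks. Hence the peaks at stable sites were the wider ones in each list, and those of old QSCs were shorter than those of both young states. Greater width was not particular to stable sites. H3K27me3 peaks that met any H3K4me3 peak of their state, stable sites included, had median widths of 1961 bp in young QSCs, 1667 bp in young ASCs and 1035 bp in old QSCs. Those that met none had 1088 bp, 824 bp and 741 bp. At stable sites the medians were 2260 bp, 3059 bp and 1250 bp.

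For a comparison peak by peak, only places with 1 peak in each of the 2 lists that met no further peak were used, and a width was called changed at 1.5-fold or more in either direction. The same calls over all such places of the 2 lists give the background. H3K27me3 in young ASCs was wider than in young QSCs at 31.0% (28.7% to 33.5%) of 1438 stable places, against a background of 25.3%. It was narrower at 3.96% (3.07% to 5.10%), against a background of 12.0%. The median went from 1824 bp to 2547.5 bp, and the median log2 ratio of the width was 0.28, against 0.13 over all places. At the 3884 places that were not stable, 23.2% were wider and 15.0% narrower. The rule asked for an ASC peak that reaches the site, which a wide peak does more readily, and its part in these shares was not tested. It asked the same of old QSC peaks, so this limit also holds for the old QSC shares that follow.

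In old QSCs, H3K27me3 was narrower than in young QSCs at 49.7% (47.4% to 52.1%) of 1744 stable places, close to the background of 50.8%. It was wider at 2.24% (1.64% to 3.04%), with a background of 2.77%. The median width went from 1964.5 bp to 1245 bp, and the median log2 ratio was -0.58 at stable places and -0.61 over all places. The stable places are themselves more than 50% of the 2892 places behind this background. At the 1148 places that were not stable, 52.5% (49.6% to 55.4%) were narrower and the median log2 ratio was -0.65. Counted without a fold limit, H3K27me3 was narrower in old QSCs at 82.9% of the stable places and 80.7% of those not stable. By that count it was narrower at most one-to-one places, stable or not.

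H3K4me3 at stable sites went the other way from H3K4me3 in general upon activation. It was wider in young ASCs than in young QSCs at 2.98% (2.36% to 3.74%) of 2351 stable places, against a background of 13.5%, and narrower at 8.42% (7.37% to 9.61%), against a background of 6.69%. Counted without a fold limit, 65.7% of the stable places were narrower in ASCs, whereas 38.3% of all places were. The median log2 ratio was -0.10 at stable places and 0.11 over all places. These are small shifts, from 1451 bp to 1333 bp at stable places. Of the 17567 places of the background, 15216 were not stable, and the other bivalent peaks were not set apart among them. Whether the contrast holds for bivalent peaks in general was not tested. Between old and young QSCs, H3K4me3 was wider at 5.13% (4.31% to 6.11%) of 2337 stable places (background 4.18%) and narrower at 1.16% (0.795% to 1.68%, background 2.05%), with median log2 ratios of 0.09 and 0.07. The bar plot of width calls sets these shares side by side, with the largest gap between stable and other places at H3K4me3 widening in ASCs.

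**Figure D2:**
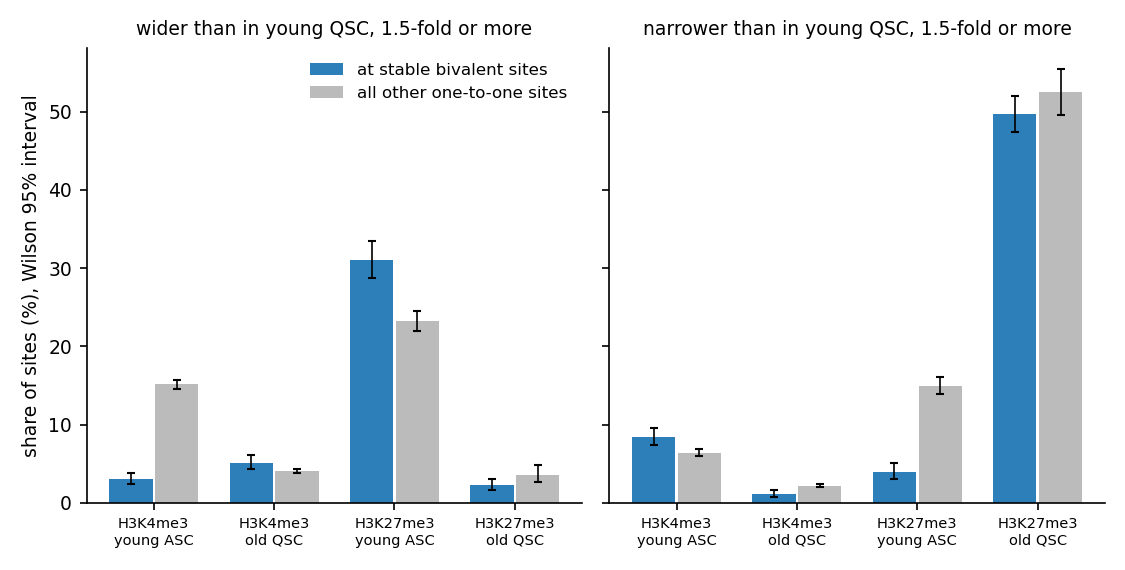
Share of places (%, bars from 0) where a peak was wider (left) or narrower (right) than its young QSC counterpart by 1.5-fold or more, at stable bivalent sites (blue) and at all other one-to-one places (grey), with Wilson 95% intervals as error bars. H3K4me3 widened in young ASC at 2.98% of the stable places and 15.1% of the others, and H3K27me3 narrowed in old QSC at 49.7% and 52.5%.

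Away from the centre of the H3K4me3 peak, H3K27me3 fell off differently in the 3 states. An H3K27me3 peak covered the centre of 93.9% of the stable sites in young QSCs, 97.6% in young ASCs and 93.6% in old QSCs. At 1 kb from the centre, coverage was 63.2% in young QSCs, 75.7% in young ASCs and 27.3% in old QSCs, and at 5 kb it was 23.8%, 32.0% and 8.57%. H3K4me3 itself covered 27.3%, 24.5% and 33.0% of the sites at 1 kb. At this distance the H3K27me3 of old QSCs was thus no more frequent than H3K4me3, while in both young states it was more than that. The curves of coverage against distance show broad H3K27me3 shoulders in young QSCs and ASCs and a peak in old QSCs about as sharp as that of H3K4me3.

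**Figure D3:**
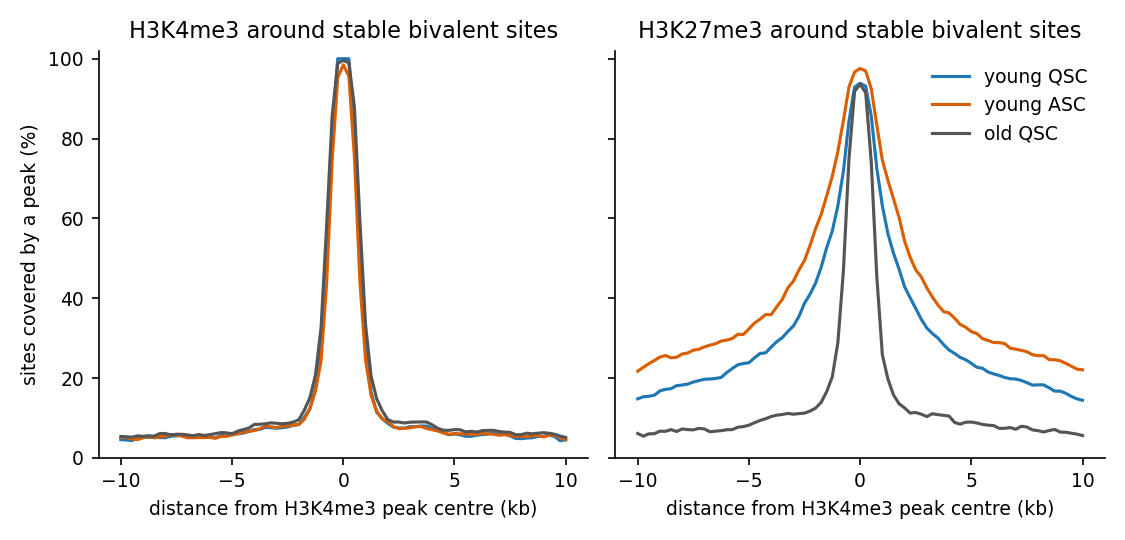
Share of the 2543 stable bivalent sites covered by a peak (%) against the distance from the centre of the young QSC H3K4me3 peak (kb), for H3K4me3 (left) and H3K27me3 (right) in the 3 cell states. At 1 kb, H3K27me3 covered 63.2% of sites in young QSC, 75.7% in young ASC and 27.3% in old QSC.

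The layout of the marks differed accordingly. In young QSCs, 58.6% (56.7% to 60.5%) of the H3K4me3 peaks at stable sites lay wholly inside the H3K27me3 peak, and in young ASCs 77.4% (75.7% to 78.9%) did. In old QSCs only 15.9% (14.5% to 17.4%) did, and the reverse, H3K27me3 wholly inside H3K4me3, was found at 45.7% (43.7% to 47.6%), compared with 9.79% (8.70% to 11.0%) in young QSCs and 5.19% (4.40% to 6.12%) in young ASCs. The H3K27me3 peak was in the median 1.69 times as wide as the H3K4me3 peak in young QSCs, 2.56 times in young ASCs and 0.882 times in old QSCs. It reached beyond H3K4me3 by a median of 1113 bp, 2138 bp and 13 bp in these states.

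The centres of the peaks were also closest in old QSCs. The median distance between the H3K4me3 centre and the H3K27me3 centre was 403.5 bp in young QSCs (quartiles 148 and 921 bp), 482 bp in young ASCs (quartiles 188 and 1058 bp) and 113.5 bp in old QSCs (quartiles 50 and 258 bp). Over the sites, the summed widths of the 2 marks had a Spearman rho of 0.18 in young QSCs, 0.14 in young ASCs and 0.59 in old QSCs (n = 2543 sites). Since all sites of a state come from the same 2 libraries, these values are given as a description only. Thus, in old QSCs, the H3K27me3 called at a stable site followed the extent of H3K4me3 more closely.

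This layout was not limited to stable sites. At the 4502 old QSC bivalent peaks that were not at stable sites, 22.2% (21.0% to 23.5%) of the H3K4me3 peaks lay inside H3K27me3, 34.5% (33.1% to 35.9%) held the H3K27me3 peak inside them, and the centres were 75.5 bp apart in the median. In young ASCs the stable sites and the other bivalent peaks were further apart, since at the 2974 other bivalent peaks of that state 36.01% (34.3% to 37.8%) of the H3K4me3 peaks lay inside H3K27me3, against 77.4% at stable sites. In young QSCs the values were 35.4% (32.4% to 38.6%) at the 903 other bivalent peaks and 58.6% at stable sites. The stacked bars of layout show the share of enclosed H3K4me3 peaks in each state.

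**Figure D4:**
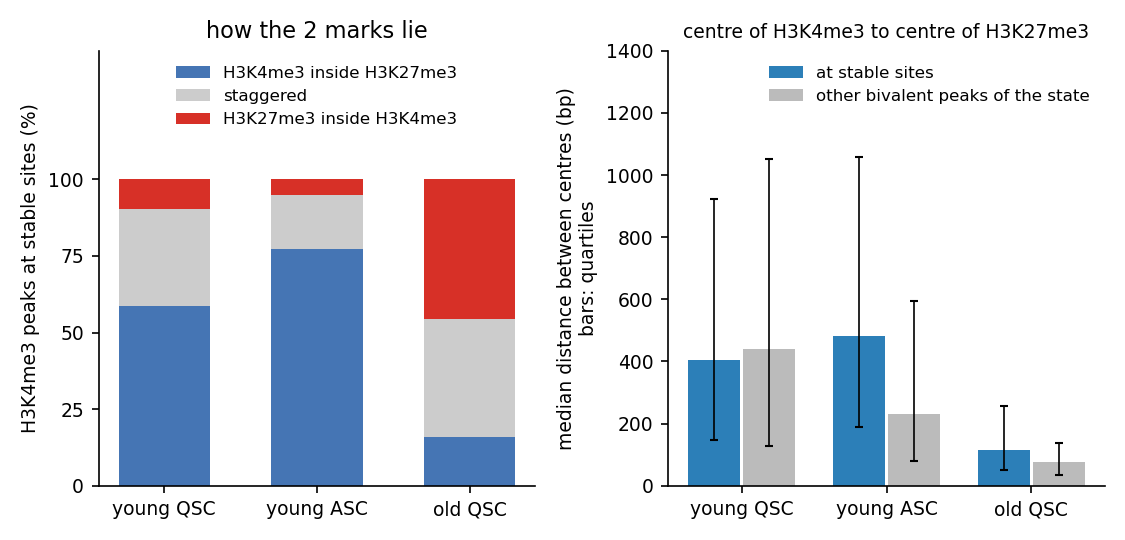
Left, H3K4me3 peaks at stable sites (%) by layout, lying inside H3K27me3 (blue), staggered (grey) or holding H3K27me3 inside them (red), in each state. Right, median distance in bp between the centres of H3K4me3 and H3K27me3 at stable sites (blue) and at the other bivalent peaks of the state (grey), with lines from the lower to the upper quartile. At stable sites the median was 403.5 bp in young QSC, 482 bp in young ASC and 113.5 bp in old QSC.

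Seen from the 2418 young QSC H3K27me3 peaks at stable sites, H3K27me3 of ASCs covered the whole domain and that of old QSCs a part of it. The median covered length was 100% in young ASCs (quartiles 93.8% and 100%) and 60.3% in old QSCs (quartiles 42.2% and 81.7%). More than 1 peak met the domain at 351 (14.5%) in young ASCs and at 512 (21.2%) in old QSCs, where a single domain was met by up to 10 peaks. For the other young QSC H3K27me3 peaks that met at least 1 peak, the median covered length was 93.6% in young ASCs and 52.7% in old QSCs, and more than 1 peak met 14.2% and 8.49% of them. These other peaks were narrower, with a median width of 1102.5 bp over all 9240 of them, against 2260 bp at stable sites. Of all these other peaks, 67.8% met a peak in young ASCs and 14.7% in old QSCs, whereas 99.5% and 97.4% of those at stable sites did, as the rule largely required.

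H3K36me3 took no part in the choice of sites. In young QSCs it overlapped 314 of the 2543 stable sites, or 12.3% (11.1% to 13.7%), close to the 12.9% (12.5% to 13.3%) of all H3K4me3 peaks. The share was 19.4% (16.9% to 22.1%) at the other bivalent peaks and 5.63% (5.25% to 6.05%) at the H3K4me3 peaks free of H3K27me3. The H3K36me3 peaks at stable sites had a median score of 78.9, near the 83.8 of the whole list, of which 39.3% reached 100. The median was 130 at the other bivalent peaks and 89.0 at the H3K4me3 peaks free of H3K27me3. With scores of at least 100 in every list, H3K36me3 overlapped 4.13% (3.31% to 5.14%) of the stable sites, 12.3% (10.1% to 15.0%) of the other bivalent peaks, 2.58% (2.32% to 2.88%) of the peaks free of H3K27me3 and 5.57% (5.25% to 5.91%) of all H3K4me3 peaks. The overlap was local, since H3K36me3 covered 9.83% of the stable site centres and 1.79% of the positions 1 kb away. This was not particular to stable sites, as the other bivalent peaks had 18.2% and 3.32%. The stable sites with H3K36me3 had the stronger H3K4me3. Its median score in young QSCs was 1126, against 589 at the 2229 stable sites without H3K36me3.

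In young ASCs, H3K36me3 overlapped 55 stable sites, or 2.16% (1.67% to 2.80%), although that H3K36me3 list held 42880 peaks against 20399 in young QSCs. The other groups were all higher, at 7.20% (5.69% to 9.07%) for the other bivalent peaks, 4.82% (4.46% to 5.20%) for H3K4me3 peaks free of H3K27me3 and 6.76% (6.45% to 7.08%) for all young QSC H3K4me3 peaks. At the score minimum of 100 the stable share was 1.27% (0.845% to 1.89%), and the shares of these groups were 5.05% (3.64% to 6.98%), 3.49% (3.18% to 3.83%) and 4.05% (3.78% to 4.35%) in the same order. Within 5 kb of the site, H3K36me3 was found at 6.96% (6.03% to 8.02%) of the stable sites in young ASCs, compared with 16.5% (14.2% to 19.1%) of the other bivalent peaks and 38.5% (37.6% to 39.3%) of the H3K4me3 peaks free of H3K27me3. In young QSCs these values were 19.5% (18.0% to 21.0%), 28.6% (25.7% to 31.6%) and 25.5% (24.7% to 26.2%). Over all young QSC H3K4me3 peaks the share within 5 kb was 28.4% in young ASCs and 27.6% in young QSCs. In ASCs the stable sites thus had the lowest share of the 4 groups at both distances. In young QSCs they had the lowest share within 5 kb but not for direct overlap. Of the 314 sites with H3K36me3 in young QSCs, 40 had it in ASCs. The samples at hand held no H3K36me3 library of old QSCs.

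Stable sites were unevenly spread over the chromosomes. Chromosome 2 held the most, with 259 sites or 10.2% (9.07% to 11.4%), against 7.83% of all young QSC H3K4me3 peaks. Chromosome X held 24 sites or 0.944% (0.635% to 1.40%), against 2.77% (2.58% to 2.99%) of all peaks, so that 3.50% (2.37% to 5.16%) of its H3K4me3 peaks were stable bivalent sites. On chromosome 2 that share was 13.4% (11.9% to 15.0%), the highest of any chromosome, and on chromosome 13 it was 12.4% (10.5% to 14.6%). All mice were male and carry 1 copy of chromosome X, whose part in the X value was not tested. The other bivalent peaks showed both traits too, with 11.5% (9.60% to 13.8%) on chromosome 2 and 1.11% (0.603% to 2.03%) on chromosome X, so neither value was particular to the stable sites.

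Many stable sites lay near each other. With sites joined into a run when the gap was at most 50 kb, 1185 sites (46.6%, 44.7% to 48.5%) had a stable neighbour, compared with 26.7% (23.9% to 29.7%) of the other bivalent peaks joined among themselves. The shares were 68.9% for the H3K4me3 peaks free of H3K27me3 and 77.5% for all H3K4me3 peaks. These shares rise with the number of sites in a set, and the sets held 2543, 903, 12728 and 24701 sites, so they do not show whether stable sites cluster more than others. There were 234 runs of 2 sites and 177 runs of 3 or more, 37 of them with at least 5. H3K27me3 was wider where sites lay together. With each peak counted once, its median width in young QSCs was 1885 bp at the 1358 lone sites, 2485.5 bp at the 468 sites in runs of 2 and 3640.5 bp at the 717 sites in longer runs. In young ASCs the widths were 2786 bp, 3115.5 bp and 4310.5 bp in that order, and in old QSCs 1203 bp, 1269.5 bp and 1373.5 bp. An H3K27me3 peak that holds 2 or more sites has to be wide and also places them in a run. Width and run are thus linked by construction, and the part of this link in the order was not tested. H3K4me3 of young QSCs showed the opposite order, with 1538 bp at lone sites, 1442.5 bp in runs of 2 and 1339 bp in longer runs. That of young ASCs did too, with 1423 bp, 1304 bp and 1217 bp. In old QSCs the H3K4me3 widths were 1610 bp, 1618 bp and 1552 bp, without such an order.

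Some neighbouring sites shared an H3K27me3 domain, though most H3K27me3 peaks at stable sites held 1 site. In young QSCs 2226 of 2418 such peaks held 1 stable site, 146 held 2 and 46 held more. In young ASCs 2165 of 2375 held 1, 149 held 2 and 61 held more. In old QSCs 2677 of 2731 held 1, only 48 held 2 and 6 held more. The young QSC domain with the most sites, at chr11:118902309-118923896, was 21588 bp wide and held 6. Sites within a shared domain are therefore not independent observations of H3K27me3.

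The longest run comprised 19 sites over 151 kb at chr11:96064552-96215165, and every young QSC H3K4me3 peak within it was a stable site. H3K27me3 covered 67.7% of the run in young QSCs, 81.4% in young ASCs and 24.5% in old QSCs, and the widest H3K27me3 peak in it measured 12533 bp, 18963 bp and 3299 bp. H3K4me3 covered 12.1%, 14.0% and 17.8% in the same order. No H3K36me3 peak of young QSCs or ASCs lay in the run. The map of this run shows nearly unbroken H3K27me3 over its right part in both young states and separate short H3K27me3 peaks, many of them at H3K4me3 peaks, in old QSCs.

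**Figure D5:**
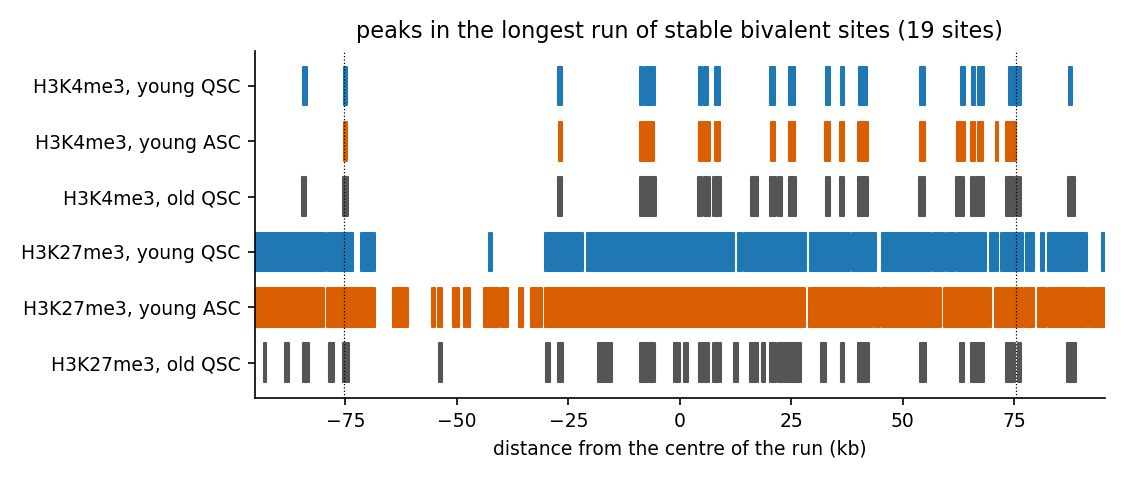
Peaks of H3K4me3 (upper 3 rows) and H3K27me3 (lower 3 rows) in the 3 cell states across the longest run of stable bivalent sites, against the distance from its centre in kb. Dotted lines mark the ends of the run. H3K27me3 peaks covered 67.7% of the run in young QSC, 81.4% in young ASC and 24.5% in old QSC.

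The next runs were alike in part. At chr2:74493487-74601948, 17 sites lay within 108 kb, with H3K27me3 over 77.8% of it in young QSCs, 83.5% in young ASCs and 34.2% in old QSCs, and again no H3K36me3 peak. At chr19:44746177-44835251, with 9 sites and likewise no H3K36me3 peak, the coverage was 60.1%, 77.8% and 21.4%. The run of 10 sites at chr3:96131643-96279500 had less H3K27me3 in ASCs than in young QSCs, with 75.7% in young QSCs, 62.6% in young ASCs and 24.1% in old QSCs. It held 12 H3K4me3 peaks in young QSCs but 21 in young ASCs and 15 in old QSCs, and 3 H3K36me3 peaks of young QSCs over 2.05% of its length. The other run of 10 sites, at chr11:118883473-118953218, was nearly even, at 44.8%, 45.9% and 39.6%. It held 3 H3K36me3 peaks of young QSCs over 9.35% of its length and 2 of young ASCs over 5.89%. There the coverage in old QSCs came from 19 peaks of at most 3242 bp, compared with 5 peaks of up to 21588 bp in young QSCs.

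By the lowest score over the 6 lists, the stable sites farthest from the limit of calling were 3 neighbours on chromosome 1. The peaks at chr1:172993411-172997639, chr1:172999748-173005442 and chr1:173007514-173012895 had a score of 3100, the value at which most top scores were tied, in all 6 lists. In young QSCs a single H3K27me3 peak of 23118 bp covered all 3, whereas in old QSCs each had its own, of 4117 bp, 7624 bp and 5188 bp. The site at chr9:62989823-62995275 scored 3100 in 5 lists and 2685 in H3K27me3 of old QSCs, and its H3K27me3 width was 17595 bp in young QSCs, 20531 bp in young ASCs and 5547 bp in old QSCs. At chr2:73110565-73113159 the scores were 3100 in 5 lists and 2588 in H3K27me3 of old QSCs, and the widths were 5979 bp, 5910 bp and 2772 bp. All 5 of these sites met H3K36me3 in young QSCs and none did in young ASCs, where the shares over all stable sites were 12.3% and 2.16%. These 5 were chosen by score, and the 3 neighbours under 1 H3K27me3 peak are not separate observations.

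At the other end, the 5 sites with the lowest minimum score scored between 50.05 and 50.1 in their weakest list, at the limit of calling. At chr13:83872197-83872880 the weakest list was H3K4me3 of young QSCs, with scores of 50.05 there, 58.5 in young ASCs and 66.8 in old QSCs. H3K27me3 at this site scored 366 in young QSCs, 3100 in young ASCs and 175 in old QSCs. At chr12:85378936-85380358 the weakest list was H3K27me3 of old QSCs, with H3K4me3 at 2766, 3100 and 3100 and H3K27me3 at 83.2, 505 and 50.1 in the same order. The rule thus took in sites where 1 list only just reached the limit of calling.

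The widest H3K4me3 peak among the stable sites, at chr15:76002529-76012662, measured 10134 bp in young QSCs with a score of 549. It was broken into 5 peaks of 3504 bp in all in young ASCs, with a best score of 160, and matched by 2 peaks of 10275 bp in old QSCs, with a best score of 94.95. H3K27me3 there was 1044 bp wide in young QSCs, 9396 bp in 4 peaks in young ASCs and 1161 bp in old QSCs. It was the only 1 of the 5 widest sites that met H3K36me3 in both young states, as 40 of all 2543 stable sites did. The other 4 widest, between 6262 bp and 7181 bp, scored 3100 for H3K4me3 in all 3 states, and their H3K27me3 scores in old QSCs were between 333 and 1075.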

How the data were processed

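H3K4me3, H3K27me3 and H3K36me3 ChIP-seq libraries of young QSCs and young ASCs, and H3K4me3 and H3K27me3 libraries of old QSCs, were used, 8 in all. The authors deposited, per library, the position and the score of each peak. The score follows the MACS scale of 10 times the negative log10 of the p-value, from 50 (1e-05) upward, with peaks called against an input. Bowtie and the build mm9 are named in the submitters' processing notes, and versions are not given in the sources used here. Samples were grouped by their titles.

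Starts were made 1-based. Overlap was at least 1 bp, and widths, layouts and runs (gaps of at most 50 kb) were computed with Python 3.11.15, numpy 2.4.6, pandas 2.3.3, scipy 1.17.1 (Wilson 95% intervals) and matplotlib 3.10.9. On simulated data 348 of 348 planted stable sites were found among 2000 peaks per list, with 0 false ones, and overlap counts were checked with bedtools 2.31.1 for 6 lists. Peak calling sets how wide and how broken a domain appears, and read depth, which is unknown, sets which peaks pass. The sites, comparisons and alternatives were chosen with earlier results of these data known. Named sites were the 5 with the highest and the 5 with the lowest minimum score, the 5 widest, the 5 longest runs, and 3 on either side of the rule. The gene table at hand was of the assembly GRCm38.p6, so no gene, start site or sequence is given, and the gene and marker lists that had been planned were not used. No test between states was made.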

Additional observations from a re-analysis of the deposited data

How the results depend on the processing

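The alternatives were scores of at least 100, lists of a mark cut to equal numbers of top-scoring peaks, overlaps covering 50% or more of the shorter peak, peaks less than 1 kb apart merged, summed widths and other run gaps. For the layout of the marks they were chosen after seeing the data. Of 50 alternative values over 15 results, 29 stayed within the interval of the reported value (or within 1.5 times, for numbers of sites and distances), 21 moved beyond it and 0 changed sign. The number of stable sites ranged from 1817 to 2442, and the stable share of bivalent peaks moved to 66.1% with top-scoring peaks and 76.0% with the 50% overlap. The log2 ratio of H3K27me3 width for old over young QSCs moved to -0.75 with scores of at least 100, -0.64 with top-scoring peaks, -0.69 when merged and -0.85 when summed, and that for ASCs to 0.39 when merged. The H3K4me3 ratio for old QSCs moved to 0.082 when merged and 0.11 when summed. With scores of at least 100, H3K36me3 overlapped 4.13% of the stable sites in young QSCs and 1.27% in ASCs. The share with a stable neighbour moved to 38.1% with gaps of 20 kb, 54.5% with 100 kb, 44.0% with scores of at least 100 and 40.4% when merged. H3K4me3 inside H3K27me3 moved to 66.4% in young QSCs and 81.1% in ASCs with scores of at least 100, and to 61.4%, 79.7% and 19.8% in young QSCs, ASCs and old QSCs when merged. The distance between centres in ASCs moved to 759 bp when merged. The share of sites with an annotated start site was not run, since no annotation in mm9 was used. The causes of these moves were not tested. With 1 library per state and mark and unknown depth, no library could be left out, and neither replicate error nor a depth limit can be given.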

Other observations

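Of the 24453 H3K4me3 peaks of old QSCs, 7003 were bivalent, and 3413 of these were also bivalent in young ASCs. At 2495 of these (73.1%, 71.6% to 74.6%) both marks were called in young QSCs too, and at 736 (21.6%, 20.2% to 23.0%) only H3K4me3 was. H3K27me3 alone was called in young QSCs at 124 (3.63%, 3.05% to 4.31%) and neither mark at 58 (1.70%, 1.32% to 2.19%). The H3K4me3 peaks of old QSCs had a median score of 1027 and a median width of 1602 bp where young QSCs had both marks, and 536 and 1340 bp where they had H3K4me3 only.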
